A study of Mus musculus with 12 samples.

Results

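The Hox cluster genes were followed as 38 named members out of 22225 protein-coding genes of the annotation, given by name. No measured value enters the rule, although the set itself was picked with earlier results of these data known. They lie in 4 clusters of the mouse genome (NCBIM37, the same build as mm9): HoxA at chr6:52112350-52210874 with 10 members, HoxB at chr11:96055630-96229570 with 10, HoxC at chr15:102751534-102867274 with 9 and HoxD at chr2:74506367-74603200 with 9. A member was counted in a list when a peak touched the 3 kb on either side of any of its annotated transcription starts, and peaks inside the clusters were counted as well.

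The samples came from wild-type C57BL/6J mice that received a high-fat diet (HFD) or a standard chow diet (SCD) for 12 weeks from 6 weeks of age. Brown adipose tissue (BAT) and subcutaneous white adipose tissue (WAT) were cross-linked with 1% formaldehyde for 8 min, and chromatin carrying the di- or trimethylated lysine of histone H3 was precipitated and sequenced (ChIP-seq of H3K9me2 and H3K9me3). There were 12 libraries, of which 4 were inputs, not analysed here, and each of the 8 precipitated libraries had 1 peak list. The groups were HFD BAT H3K9me2, SCD BAT H3K9me2, HFD BAT H3K9me3, SCD BAT H3K9me3, HFD WAT H3K9me2, SCD WAT H3K9me2, HFD WAT H3K9me3 and SCD WAT H3K9me3, with 1 library each. No comparison therefore has a replicate or a p-value, and the number of mice behind a library is not given in the sources used here. The study's methods pair each mark with an antibody described as recognising the other one, so the marks are named here as the labels name them. Both tissues are mixtures of cell types, and fewer cells that carry a mark and less mark per cell cannot be told apart. A peak list shows neither expression nor cell makeup, so the tissue labels could not be checked against marker genes.

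Hox genes encode homeodomain transcription factors that give the cells of the embryo their position along the head-to-tail axis and, in the limbs, from shoulder or hip to digit. Within a cluster the genes stand in the order in which they are used along the body, low numbers (anterior) at one end and high numbers (posterior) at the other, and genes with the same number in different clusters are paralogues. Adult fat depots keep Hox patterns that differ with their place in the body. In many tissues Polycomb proteins, which act through another lysine of histone H3, keep Hox clusters silent, whereas methylation of lysine 9 is best known from heterochromatin and silenced genes.

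Sequences at 4 starts are shown first, because the results below return to them: Hoxd9 carried a peak in all 8 lists, Hoxd1 in all but 1, and Hoxa4 and Hoxb1 had peaks that differed with diet. Each is 300 bases of NCBIM37, 250 before and 50 after the outermost start, on the strand of the gene. Capitals mark every CG, the letters C and G in that order, a motif that reads the same on both strands. Hoxd9 is on the + strand at chr2:74535487-74535786, Hoxd1 on the + strand at chr2:74600787-74601086, Hoxa4 on the - strand at chr6:52141703-52142002 and Hoxb1 on the + strand at chr11:96226816-96227115.
Hoxd9: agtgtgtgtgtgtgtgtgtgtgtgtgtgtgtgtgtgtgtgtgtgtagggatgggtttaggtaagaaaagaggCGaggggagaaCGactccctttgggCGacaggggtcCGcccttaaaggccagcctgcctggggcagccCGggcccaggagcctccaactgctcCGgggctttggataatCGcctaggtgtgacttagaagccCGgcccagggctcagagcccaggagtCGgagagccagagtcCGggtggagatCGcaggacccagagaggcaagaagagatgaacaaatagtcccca
Hoxd1: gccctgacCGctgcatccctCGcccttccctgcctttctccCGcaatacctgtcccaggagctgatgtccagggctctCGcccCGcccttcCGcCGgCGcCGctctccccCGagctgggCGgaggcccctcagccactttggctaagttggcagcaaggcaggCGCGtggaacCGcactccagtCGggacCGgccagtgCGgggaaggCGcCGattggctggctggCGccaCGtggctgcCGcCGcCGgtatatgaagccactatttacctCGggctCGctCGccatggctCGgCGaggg
Hoxa4: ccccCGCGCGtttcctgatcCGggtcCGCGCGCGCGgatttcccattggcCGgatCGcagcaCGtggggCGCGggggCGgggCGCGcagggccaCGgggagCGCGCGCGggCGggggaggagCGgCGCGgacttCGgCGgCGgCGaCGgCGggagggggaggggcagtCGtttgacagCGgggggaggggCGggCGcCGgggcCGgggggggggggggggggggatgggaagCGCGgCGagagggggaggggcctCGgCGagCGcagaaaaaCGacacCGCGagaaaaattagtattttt
Hoxb1: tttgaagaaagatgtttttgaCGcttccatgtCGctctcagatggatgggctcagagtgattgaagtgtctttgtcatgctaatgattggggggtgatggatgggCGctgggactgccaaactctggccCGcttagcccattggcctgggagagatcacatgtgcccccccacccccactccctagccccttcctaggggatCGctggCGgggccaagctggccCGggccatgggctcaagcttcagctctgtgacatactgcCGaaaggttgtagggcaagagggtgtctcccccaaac

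The Hoxa4 window held 47 CG, a number reached by 1.67% of all protein-coding genes in windows of the same length. Hoxd1 held 29, a number reached by 15.1% of genes. Hoxd9 held 11, a number reached by 52.0% of genes, and Hoxb1 held 8, reached by 59.2%. The median over the 38 members was 13, with a lowest value of 2 and a highest of 47, beside a median of 11 over all genes. A start was called CpG-rich when the 1 kb round it had at least 50% GC and an observed over expected CpG ratio of at least 0.6. Of the members, 24 of 38 had a CpG-rich start (63.2%), beside 49.1% of all genes.

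A larger share of the members than of all genes had a promoter peak in every list, and in 7 of the 8 lists the members' interval lay above the share of all genes. A peak carries a score, read here as 10 times the -log10 of its p-value, and only peaks of score 50 or more (a p-value of 1e-05 or less) were used, since 6 lists stop there. For H3K9me2 in BAT, 20 of 38 members had a promoter peak on HFD (52.6%, exact binomial 95% interval 35.8 to 69.0%), beside 45.7% of all genes, and 26 on SCD (68.4%, 51.3 to 82.5%), beside 43.4%. For H3K9me3 in BAT, the counts were 34 on HFD (89.5%, 75.2 to 97.1%), beside 59.1% of all genes, and 32 on SCD (84.2%, 68.7 to 94.0%), beside 52.4%. In WAT, H3K9me2 peaks stood at 29 members on HFD (76.3%, 59.8 to 88.6%), beside 39.4% of all genes, and at 31 on SCD (81.6%, 65.7 to 92.3%), beside 42.5%. H3K9me3 in WAT gave 27 members on HFD (71.1%, 54.1 to 84.6%), beside 36% of all genes, and 11 on SCD (28.9%, 15.4 to 45.9%), beside 6.96%. The intervals cover counting error only. Promoter windows of 18 of the 38 members overlap that of another member, so neighbouring members can share a peak.

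**Figure D1:**
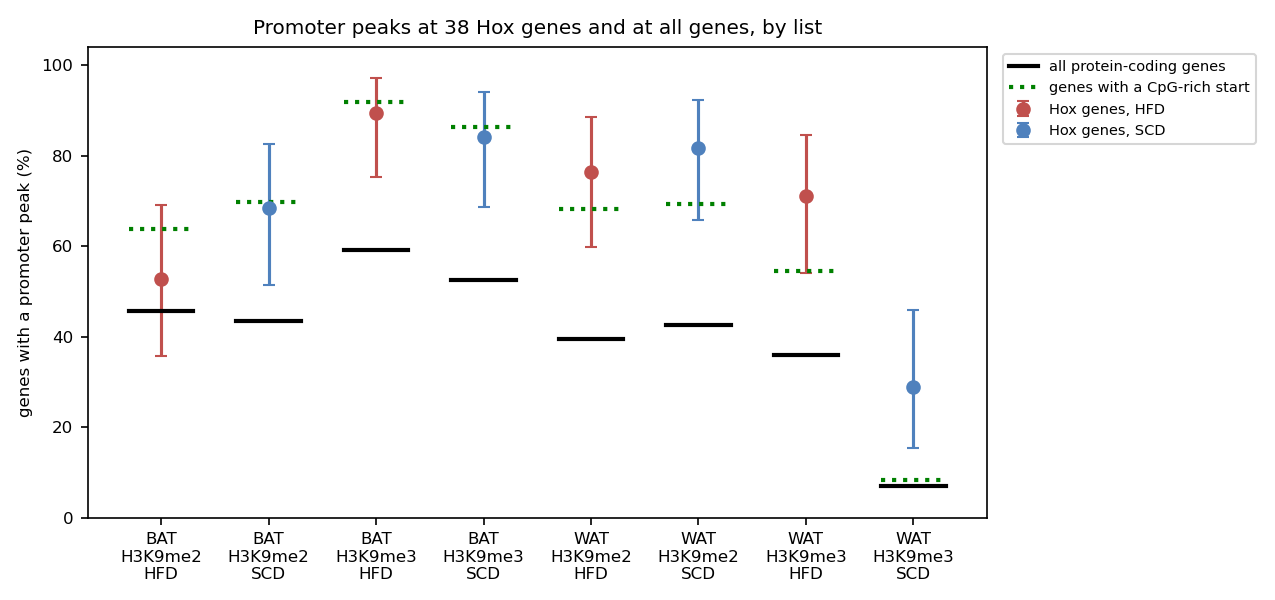
Percent of the 38 Hox genes with a promoter peak in each list (points; bars are exact binomial 95% intervals), with the percent of all protein-coding genes (black lines) and of genes with a CpG-rich start (green dotted lines). The Hox value on HFD in BAT H3K9me2, 52.6%, is the one whose interval holds the value for all genes.

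The members were also set beside genes with a CpG-rich start, a comparison added after the data were seen. In BAT the share of CpG-rich genes with a promoter peak lay inside the members' interval for all 4 lists: 63.8% on HFD and 69.7% on SCD for H3K9me2, and 91.8% on HFD and 86.4% on SCD for H3K9me3. In WAT it also lay inside the interval for H3K9me2, at 68.1% on HFD and 69.3% on SCD. For H3K9me3 in WAT it was 54.4% on HFD, just inside the lower bound of the members' interval, and 8.24% on SCD, below that interval. When a peak had to cover a start itself, the members' share was closer to that of all genes. It was below that share in HFD BAT H3K9me3 (50% against 50.5%) and in HFD WAT H3K9me2 (28.9% against 31.2%). In all other lists it was above, from 34.2% against 33.6% in HFD BAT H3K9me2 to 47.4% against 36% in SCD WAT H3K9me2. For H3K9me2 in BAT the counts were 13 on HFD, beside 33.6% of all genes, and 16 on SCD, beside 37.4%. For H3K9me3 in BAT they were 19 on HFD, beside 50.5%, and 20 on SCD, beside 47%. WAT gave 11 on HFD, beside 31.2%, and 18 on SCD, beside 36%, for H3K9me2. It gave 11 on HFD, beside 26.5%, and 4 on SCD, beside 4.22%, for H3K9me3. As shares of the 38 members these ran between 10.5% and 52.6%.

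Lists of very different length stand behind these counts, so the 8350 highest peaks of each list, the number in the shortest one, were also compared, a choice made after the data were seen. H3K9me2 in BAT then marked 7 members on HFD, beside 11.8% of all genes, and 9 on SCD, beside 18%. H3K9me3 in BAT marked 11 on HFD, beside 24.2%, and 16 on SCD, beside 23.2%. H3K9me2 in WAT marked 15 on HFD, beside 21.9%, and 14 on SCD, beside 19.9%. H3K9me3 in WAT marked 11 on HFD, beside 12.1%, and 11 on SCD, beside 6.96%. At this equal number the members' share was above that of all genes in all 8 lists, and the largest member count was in the SCD BAT H3K9me3 list.

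Every member had a promoter peak in at least 1 list, whereas 31.7% of all genes had one in none. The members with a peak in all 8 lists were Hoxa3, Hoxa5, Hoxa10, Hoxa11, Hoxd3, Hoxd9 and Hoxd10, 7 of 38, beside 3.71% of all genes. Counted from the outermost start of each gene alone, Hoxa5, Hoxa11, Hoxd9 and Hoxd10 had one in all 8 lists, Hoxa3 in 2, Hoxa10 in 3 and Hoxd3 in 5, and Hoxc4 and Hoxd4 had none. With all starts, another 9 had one in 7 lists (Hoxa9, Hoxb3, Hoxb9, Hoxc12, Hoxc13, Hoxd1, Hoxd4, Hoxd11 and Hoxd12) and 6 in 6 lists (Hoxa6, Hoxb5, Hoxb6, Hoxb7, Hoxb8 and Hoxd13). Hoxa4, Hoxa7, Hoxa13, Hoxc8, Hoxc11 and Hoxd8 had one in 5 lists, Hoxb2, Hoxb4 and Hoxc6 in 4, and Hoxb1 in 3. Hoxb13, Hoxc4, Hoxc5 and Hoxc10 were marked in 2 lists, and Hoxa2 and Hoxc9 in 1.

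**Figure D2:**
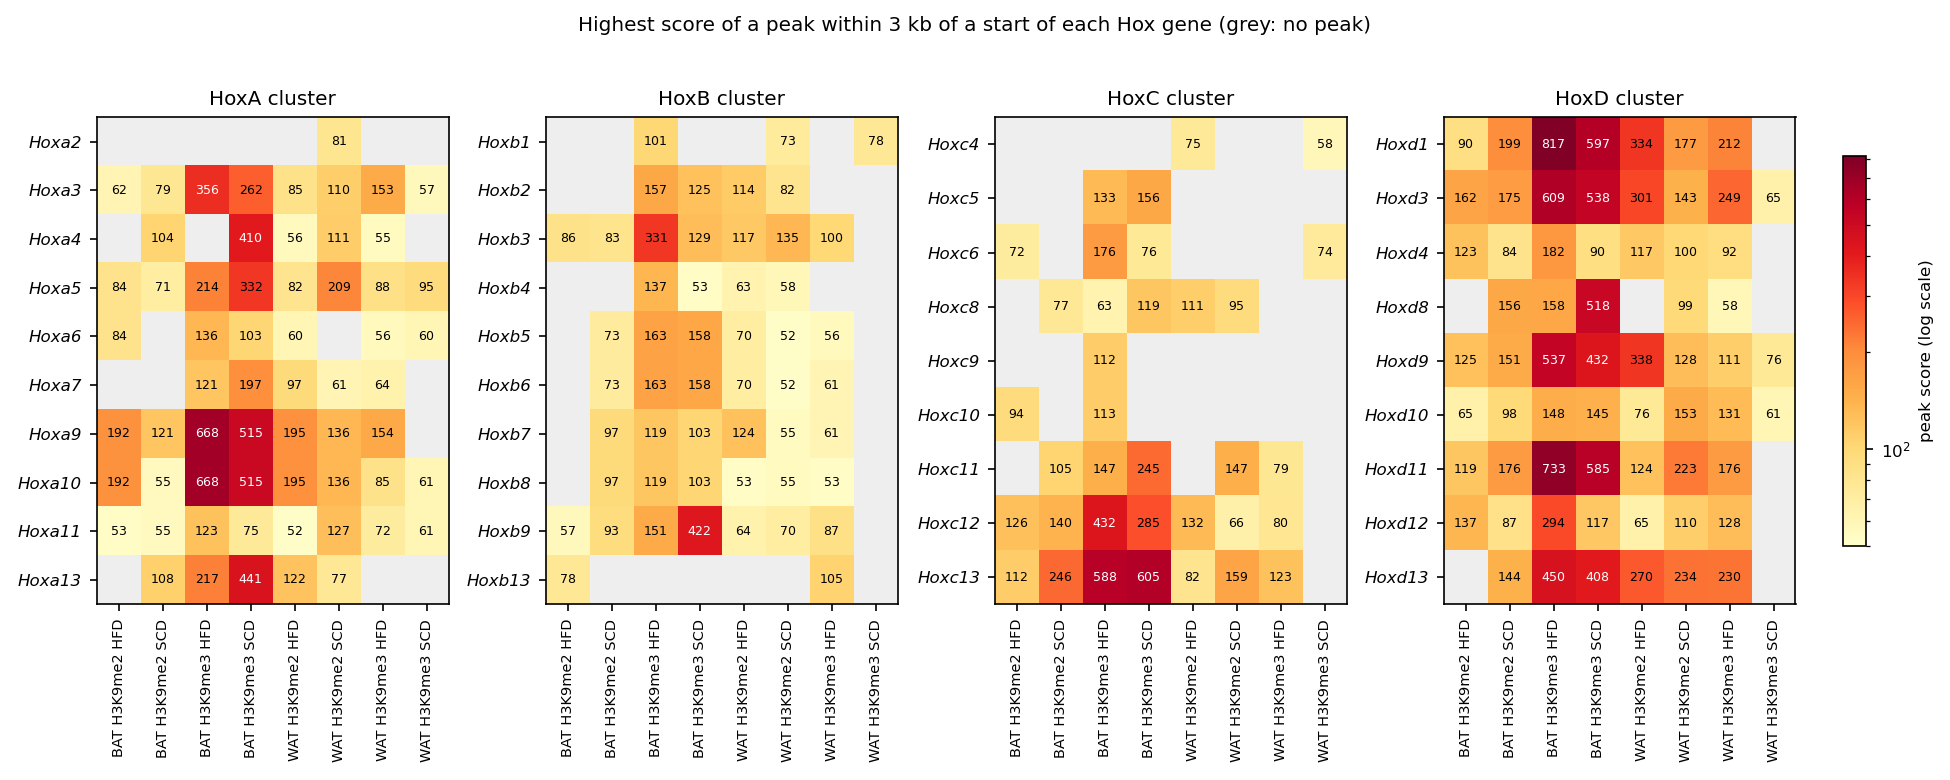
Highest score of a promoter peak (log colour scale, value printed) for each Hox gene (rows, by cluster and number) in the 8 lists (columns, HFD left of SCD for each tissue and mark); grey cells have no peak of score 50 or more. The HoxD panel is the fullest, and Hoxd1 has the highest value of the HFD BAT H3K9me3 column, 817, while most HoxC genes between Hoxc4 and Hoxc10 are grey in most lists.

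HoxD was the only cluster with a promoter peak at every member in any list. All 9 members had a promoter peak in 5 of the lists, 8 in HFD WAT H3K9me2, 7 in HFD BAT H3K9me2 and 3 in SCD WAT H3K9me3. HoxA had a larger share of its members marked in HFD WAT H3K9me2 (9 of 10) and in SCD WAT H3K9me3 (5 of 10). Hoxd9, which patterns the limb, carried one of the only 2 cluster regions that all 8 lists shared, chr2:74534936-74537174, over its start and exons. Hoxd9 scored 125 on HFD and 151 on SCD for H3K9me2 in BAT, 537 on HFD and 432 on SCD for H3K9me3 in BAT, 338 on HFD and 128 on SCD for H3K9me2 in WAT, and 111 on HFD and 76.2 on SCD for H3K9me3 in WAT. Hoxd10, which with its neighbours specifies motor neurons of the hindlimb, carried the other, chr2:74529149-74530138, beginning 2 bp from its start. Hoxd10 scored 65.3 on HFD and 97.5 on SCD for H3K9me2 in BAT, 148 on HFD and 145 on SCD for H3K9me3 in BAT, 76.1 on HFD and 153 on SCD for H3K9me2 in WAT, and 131 on HFD and 60.5 on SCD for H3K9me3 in WAT. Scores depend on the depth of a library, which is unknown here, so they order peaks within a list and are not compared in size between lists.

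Hoxd1, at the anterior end of the cluster and known for a role in pain-sensing neurons, had the highest score of the members in HFD BAT H3K9me3, at a peak over its start and exons. Hoxd1 scored 89.8 on HFD and 199 on SCD for H3K9me2 in BAT, 817 on HFD and 597 on SCD for H3K9me3 in BAT, 334 on HFD and 177 on SCD for H3K9me2 in WAT, and 212 on HFD for H3K9me3 in WAT, with no peak there on SCD. The 817 peak, chr2:74600615-74602014, scored above 98.1% of its list. Hoxd3, needed for the first neck vertebrae, was marked in all 8 lists, but it has 6 annotated starts and so more sequence in which a peak is counted. Hoxd3 scored 162 on HFD and 175 on SCD for H3K9me2 in BAT, 609 on HFD and 538 on SCD for H3K9me3 in BAT, 301 on HFD and 143 on SCD for H3K9me2 in WAT, and 249 on HFD and 65.4 on SCD for H3K9me3 in WAT. Its peak chr2:74584243-74585415 was the highest of the clusters in HFD WAT H3K9me3 and touched a Hoxd3 exon.

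The posterior HoxD genes shape digits and the genital tract. Hoxd13, the gene mutated in human synpolydactyly, had no H3K9me2 peak in BAT on HFD and scored 144 there on SCD. Hoxd13 scored 450 on HFD and 408 on SCD for H3K9me3 in BAT, 270 on HFD and 234 on SCD for H3K9me2 in WAT, and 230 on HFD for H3K9me3 in WAT, with no peak there on SCD. Hoxd11, which acts in the forearm and kidney, scored 119 on HFD and 176 on SCD for H3K9me2 in BAT, 733 on HFD and 585 on SCD for H3K9me3 in BAT, 124 on HFD and 223 on SCD for H3K9me2 in WAT, and 176 on HFD for H3K9me3 in WAT, with none on SCD. Hoxd12 was marked in 7 lists, all but SCD WAT H3K9me3, and scored between 65.1 and 294. Hoxd8 was the HoxD member with the fewest lists. It had no H3K9me2 peak on HFD in either tissue, against 156 on SCD in BAT and 98.9 on SCD in WAT. For H3K9me3, Hoxd8 scored 158 on HFD and 518 on SCD in BAT, and 58.5 on HFD in WAT with none on SCD. Hoxd4, used in the hindbrain and neck, was marked in 7 lists with scores between 83.7 and 182.

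In HoxA the highest promoter peak was counted for Hoxa9 in 6 lists, shared with Hoxa10 in 4 of them. It was that of Hoxa5 in SCD WAT H3K9me2 and SCD WAT H3K9me3. In the 4 lists the shared peak lay over a Hoxa10 start and 2269 to 2947 bp from the nearest Hoxa9 start. With a 1 kb promoter, Hoxa10 kept its 668 in HFD BAT H3K9me3, whereas Hoxa9 scored 260 there. Hoxa10, needed for the uterus and lumbar vertebrae, and Hoxa9, a regulator of blood stem cells, shared their best peak in 5 lists. Hoxa10 scored 192 on HFD and 55.2 on SCD for H3K9me2 in BAT, 668 on HFD and 515 on SCD for H3K9me3 in BAT, 195 on HFD and 136 on SCD for H3K9me2 in WAT, and 85.2 on HFD and 60.7 on SCD for H3K9me3 in WAT. The HFD peak of H3K9me2 in BAT, chr6:52183357-52185315, lies over a Hoxa10 start and exon and was the highest cluster peak of that list. Hoxa9 scored 192 on HFD and 121 on SCD for H3K9me2 in BAT and 154 on HFD for H3K9me3 in WAT, with none on SCD there. Its other scores were those of the shared peak.

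Hoxa5, known from lung and respiratory development, was marked in all 8 lists and had the highest cluster peak of SCD WAT H3K9me3, chr6:52153497-52154846. Hoxa5 scored 84.0 on HFD and 70.5 on SCD for H3K9me2 in BAT, 214 on HFD and 332 on SCD for H3K9me3 in BAT, 82.5 on HFD and 209 on SCD for H3K9me2 in WAT, and 87.7 on HFD and 95.2 on SCD for H3K9me3 in WAT. Hoxa11, which acts in the uterus and forearm, scored 52.6 on HFD and 55.2 on SCD for H3K9me2 in BAT, 123 on HFD and 75.4 on SCD for H3K9me3 in BAT, 52.1 on HFD and 127 on SCD for H3K9me2 in WAT, and 72.4 on HFD and 60.7 on SCD for H3K9me3 in WAT. Its 52.1 in HFD WAT H3K9me2 lies just inside the limit of 50. Hoxa3, needed for thymus and parathyroid, scored 61.5 on HFD and 78.9 on SCD for H3K9me2 in BAT, 356 on HFD and 262 on SCD for H3K9me3 in BAT, 85.0 on HFD and 110 on SCD for H3K9me2 in WAT, and 153 on HFD and 56.6 on SCD for H3K9me3 in WAT. The annotation holds Hoxa3 under separate gene identifiers, joined here by name. Together they have 6 starts spread over a span that encloses Hoxa4 to Hoxa6.

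The other HoxA members were marked less evenly. Hoxa4 had no peak on HFD in BAT for either mark, against 104 on SCD for H3K9me2 and 410 on SCD for H3K9me3. The SCD H3K9me3 peak, chr6:52140993-52142358, covers the CG-dense start printed above and scored above 85.0% of its list. In WAT, Hoxa4 scored 56.3 on HFD and 111 on SCD for H3K9me2, and 55.2 on HFD for H3K9me3 with none on SCD. Hoxa13, which acts in the digits and urogenital tract, had no H3K9me2 peak on HFD in BAT, against 108 on SCD. Hoxa13 further scored 217 on HFD and 441 on SCD for H3K9me3 in BAT and 122 on HFD and 77.5 on SCD for H3K9me2 in WAT, and had no H3K9me3 peak in WAT on either diet. Hoxa6 scored 84.0 on HFD for H3K9me2 in BAT and 60.1 on HFD for H3K9me2 in WAT, with no SCD peak in either. For H3K9me3, Hoxa6 scored 136 on HFD and 103 on SCD in BAT and 56.2 on HFD and 59.9 on SCD in WAT. Hoxa7 was marked in 5 lists, none of them BAT H3K9me2, with scores between 61.4 and 197. Hoxa2, which gives the second pharyngeal arch its identity, had 1 promoter peak, of 80.6, in SCD WAT H3K9me2.

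HoxB spans 173.941 kb and is the longest cluster. Hoxb9, which acts in rib patterning, scored 56.9 on HFD and 93.5 on SCD for H3K9me2 in BAT, 151 on HFD and 422 on SCD for H3K9me3 in BAT, 64.4 on HFD and 70.2 on SCD for H3K9me2 in WAT, and 87.5 on HFD for H3K9me3 in WAT with none on SCD. The 422 peak was the highest promoter peak of HoxB in its list. Hoxb5, Hoxb6, Hoxb7 and Hoxb8 shared 1 pattern for H3K9me2 in BAT. None of these neighbours had a peak there on HFD, while on SCD Hoxb5 and Hoxb6 shared a peak of 73.1 and Hoxb7 and Hoxb8 a peak of 97.0. Hoxb3 was marked in 7 lists, with scores between 82.9 and 331, and Hoxb2 and Hoxb4 in 4 lists each, the BAT H3K9me3 and WAT H3K9me2 lists. Hoxb2 scored between 82.3 and 157 there, and Hoxb4 between 52.6 and 137.

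Hoxb1, which sets the identity of a segment of the hindbrain, and Hoxb13, known from the prostate and the tail end of the spine, were the ends of the cluster with the fewest peaks. Hoxb1 scored 101 on HFD for H3K9me3 in BAT with none on SCD, 73.4 on SCD for H3K9me2 in WAT with none on HFD, and 77.7 on SCD for H3K9me3 in WAT with none on HFD. It had no H3K9me2 peak in BAT. Hoxb13 scored 77.6 on HFD for H3K9me2 in BAT and 105 on HFD for H3K9me3 in WAT, with no SCD peak in either and no peak in the other lists. Both peaks lie over its start, within chr11:96055514-96056653.

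In HoxC the posterior end was marked and the middle was sparse. Hoxc13, needed for hair and nails, scored 112 on HFD and 246 on SCD for H3K9me2 in BAT, 588 on HFD and 605 on SCD for H3K9me3 in BAT, 81.8 on HFD and 159 on SCD for H3K9me2 in WAT, and 123 on HFD for H3K9me3 in WAT with none on SCD. Its SCD peaks in BAT, chr15:102751391-102752834 for H3K9me2 and chr15:102751144-102752720 for H3K9me3, cover the start and were the highest cluster peaks of their lists. Hoxc12 was marked in the same 7 lists, with scores between 66.4 and 432. Hoxc11 had no H3K9me2 peak on HFD in either tissue, against 105 on SCD in BAT and 147 on SCD in WAT. For H3K9me3, Hoxc11 scored 147 on HFD and 245 on SCD in BAT, and 78.7 on HFD in WAT with none on SCD.

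Hoxc10, a gene known for higher expression in subcutaneous than in visceral fat, had peaks in BAT on HFD and in no other list. It scored 94.2 for H3K9me2 and 113 for H3K9me3 there, and the first of these peaks covers its start. Hoxc9, which sets thoracic motor neuron identity, had 1 promoter peak, of 112, in HFD BAT H3K9me3. A further region in a Hoxc9 exon, chr15:102811928-102812997, lay 4465 bp from the nearest member start and had peaks in 7 lists, with scores between 77.1 and 228, so Hoxc9 carries a peak that the promoter rule leaves out. Hoxc8, a repressor of Cebpb in white fat progenitors, had no H3K9me2 peak on HFD in BAT, against 76.8 on SCD. Hoxc8 scored 63.1 on HFD and 119 on SCD for H3K9me3 in BAT and 111 on HFD and 94.5 on SCD for H3K9me2 in WAT, with no H3K9me3 peak in WAT.

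Hoxc6, used in the thorax and mammary gland, scored 72.2 on HFD for H3K9me2 in BAT with none on SCD, 176 on HFD and 76.4 on SCD for H3K9me3 in BAT, and 74.2 on SCD for H3K9me3 in WAT with none on HFD. Hoxc5 had peaks for H3K9me3 in BAT alone, of 133 on HFD and 156 on SCD. Hoxc4 had a peak of 75.0 on HFD for H3K9me2 in WAT with none on SCD, and of 57.9 on SCD for H3K9me3 in WAT with none on HFD. Neither Hoxc4 peak is far above the limit of 50.

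The first comparison asked which members carried a promoter peak on 1 diet only. For H3K9me2 in BAT the members leaned to SCD although the HFD list is longer, with 43173 peaks against 24887. There, 4 members had a peak on HFD only (Hoxa6, Hoxb13, Hoxc6 and Hoxc10), 10.5% of members beside 13.8% of all genes and 12.9% of CpG-rich genes. On SCD only there were 10 (Hoxa4, Hoxa13, Hoxb5, Hoxb6, Hoxb7, Hoxb8, Hoxc8, Hoxc11, Hoxd8 and Hoxd13), 26.3% of members beside 11.5% of all genes and 18.8% of CpG-rich genes. Both diets marked 16, beside 31.9% of all genes, and neither marked 8. With equal numbers of peaks from both diets, 4 members were marked on HFD only, beside 7.54% of all genes, and 14 on SCD only, beside 19.2%. The lean to SCD is thus shared in part by all genes once the lists are of equal length.

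For H3K9me3 in BAT the diets differed at few members. A peak on HFD only stood at 3 members (Hoxb1, Hoxc9 and Hoxc10), beside 8.85% of all genes and 7.37% of CpG-rich genes, and on SCD only at 1 member, Hoxa4, beside 2.16% and 2.04%. Both diets marked 31 members, beside 50.2% of all genes. For H3K9me2 in WAT there were 2 members on HFD only (Hoxa6 and Hoxc4), beside 7.17% of all genes and 11.5% of CpG-rich genes, and 4 on SCD only (Hoxa2, Hoxb1, Hoxc11 and Hoxd8), beside 10.2% and 12.7%. Both diets marked 27, beside 32.3%. The shares of members on 1 diet only are near or below those of all genes.

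For H3K9me3 in WAT, 19 members had a peak on HFD only, 50% of members beside 30.7% of all genes and 47.4% of CpG-rich genes. Among them Hoxd13, Hoxd1, Hoxd11 and Hoxa9 scored highest. On SCD only there were 3 (Hoxb1, Hoxc4 and Hoxc6), beside 1.69% of all genes and 1.26% of CpG-rich genes, and both diets marked 8, beside 5.26% of all genes. The HFD list has 29190 peaks of score 50 or more and the SCD list 8350, the shortest of all. With equal numbers from both diets, 7 members were marked on HFD only, beside 8.99% of all genes, and 7 on SCD only, beside 3.87%, so the count on HFD no longer exceeded that on SCD. With the lists as deposited, where the SCD list goes down to a score of 30, 11 members were marked on HFD only. The share of all genes was not computed at that setting. The part of list length in the counts of 19 and 3 members was not tested further.

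The second comparison set BAT against WAT within a diet and mark. For H3K9me2 on HFD, 3 members had a peak in BAT only, beside 16.8% of all genes, and 12 in WAT only, beside 10.5%, although the BAT list is the longer one. These 12 were Hoxa4, Hoxa7, Hoxa13, Hoxb2, Hoxb4, Hoxb5, Hoxb6, Hoxb7, Hoxb8, Hoxc4, Hoxc8 and Hoxd13, 31.6% of members. On SCD, no member had an H3K9me2 peak in BAT only, beside 9.6% of all genes, and 5 had one in WAT only (Hoxa2, Hoxa7, Hoxb1, Hoxb2 and Hoxb4), beside 8.67%. All of these 5 are anterior or central genes. Only members without an H3K9me2 peak in SCD BAT could be counted here, and most of those are anterior or central. The 7 marked in neither tissue were Hoxa6, Hoxb13, Hoxc4, Hoxc5, Hoxc6, Hoxc9 and Hoxc10. The class of the 5 is therefore not read as a result about position. For H3K9me3 on HFD, 9 members had a peak in BAT only, beside 25.9% of all genes, and 2 in WAT only (Hoxa4 and Hoxb13), beside 2.8%. On SCD the numbers were 23 in BAT only, beside 46.8%, and 2 in WAT only (Hoxb1 and Hoxc4), beside 1.32%, with the short SCD WAT list on one side. The comparison of tissues was not repeated at other settings or over CpG-rich genes.

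The third comparison set H3K9me3 against H3K9me2 within a diet and tissue. In BAT on HFD, 15 members had H3K9me3 only, 39.5% beside 18.1% of all genes, and 1 member, Hoxb13, had H3K9me2 only, beside 4.75%. In BAT on SCD, 6 had H3K9me3 only (Hoxa6, Hoxa7, Hoxb2, Hoxb4, Hoxc5 and Hoxc6), beside 12%, and none had H3K9me2 only, beside 2.99%. In WAT on HFD, 3 had H3K9me3 only (Hoxb13, Hoxc11 and Hoxd8), beside 9.84%, and 5 had H3K9me2 only (Hoxa13, Hoxb2, Hoxb4, Hoxc4 and Hoxc8), beside 13.3%. In WAT on SCD, 3 had H3K9me3 only (Hoxa6, Hoxc4 and Hoxc6), beside 1.12%, and 23 had H3K9me2 only, beside 36.6%. The marks stood together at 19 members on HFD, beside 41% of all genes, and 26 on SCD, beside 40.4%, in BAT. In WAT they stood together at 24 on HFD, beside 26.1%, and 8 on SCD, beside 5.84%. CpG-rich genes were not counted by mark in this way, and no other setting was tried. In BAT on HFD, 91.8% of CpG-rich genes had a promoter peak for H3K9me3 and 63.8% for H3K9me2. The 39.5% of members with H3K9me3 only there thus has no CpG-rich share beside it.

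**Figure D3:**
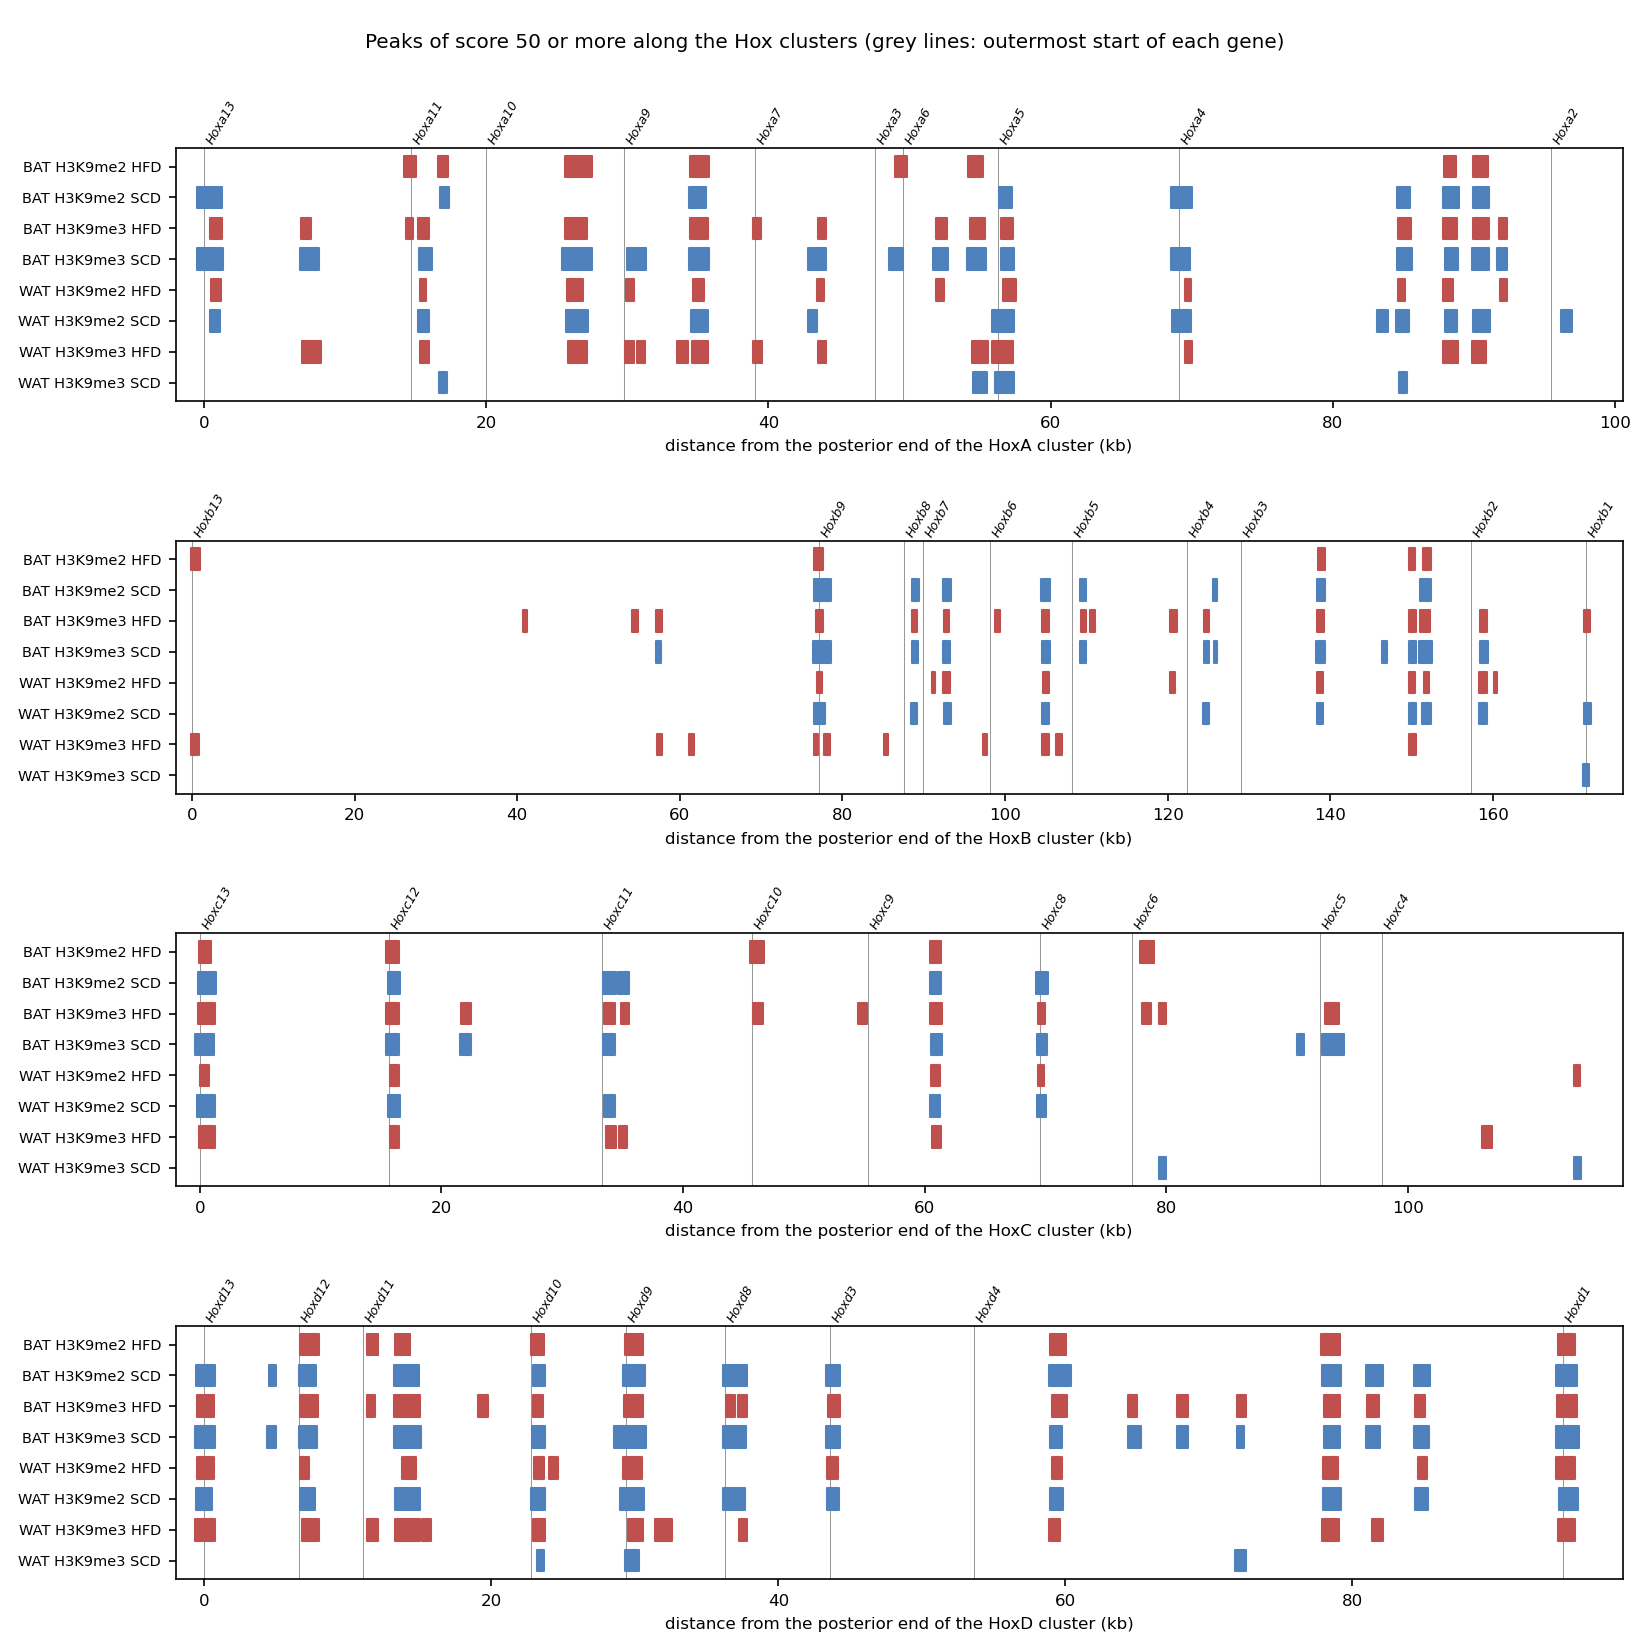
Peaks of score 50 or more (bars; red HFD, blue SCD) in the 8 lists along each Hox cluster, by distance in kb from its posterior end; grey lines mark the outermost start of each gene. Peaks recur at the same places in many lists, HoxB is nearly empty between Hoxb13 and Hoxb9, and few lists have peaks between Hoxc8 and Hoxc4.

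Along the clusters, 309 peaks of the 8 lists together fell into 84 separate regions. HoxA held 22 regions, HoxB 26, HoxC 15 and HoxD 21. Of the 84, 21 were found in 1 list, 22 in 6 or more lists and 2 in all 8, both at HoxD starts. A region lay within 3 kb of a start in 70 cases and over a start in 31, touched an exon of a member in 63, lay in an intron only in 7 and outside the member genes in 14. GC content inside the regions was between 60.2 and 61.4% in the 4 clusters, beside 45.4 to 47.4% in the rest of the same clusters, and the observed over expected CpG ratio was 0.63 to 0.72 beside 0.28 to 0.33. These regions were merged over both marks, and the marks were not measured apart for this.

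Peaks covered the clusters more densely than the genome. For H3K9me2 in BAT they covered 5.65% of the clusters on HFD, against 1.71% of the genome, and 8.12% on SCD, against 1.02%. For H3K9me3 in BAT they covered 10.8% on HFD, against 1.59% of the genome, and 11.8% on SCD, against 1.03%. In WAT, H3K9me2 covered 5.55% on HFD, against 0.60% of the genome, and 7.96% on SCD, against 0.81%. H3K9me3 in WAT covered 7.66% on HFD, against 1.02% of the genome, and 1.58% on SCD, against 0.29%. Beside the 3 kb windows round all starts, which hold many CpG-rich bases, coverage of the clusters was 0.814 times that level in HFD BAT H3K9me2 and between 1.35 and 2.10 times in the other 7 lists.

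**Figure D4:**
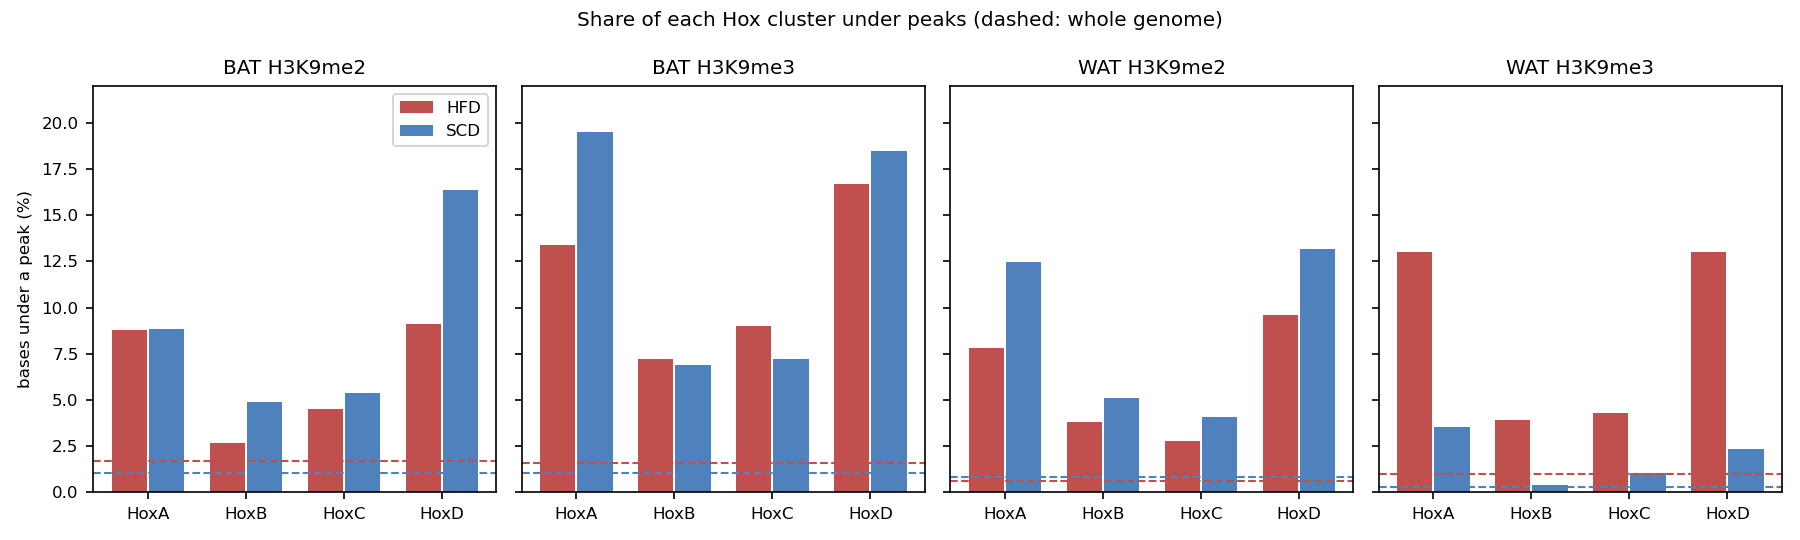
Percent of the bases of each Hox cluster under peaks (bars; red HFD, blue SCD) by tissue and mark, with the percent of the genome covered in the same lists (dashed lines). HoxA and HoxD are the most covered clusters in all 4 panels, and the SCD bars of WAT H3K9me3 are the lowest.

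HoxA and HoxD were covered more than HoxB and HoxC in all 8 lists. HoxD coverage ran between 2.37% (SCD WAT H3K9me3) and 18.5% (SCD BAT H3K9me3), and HoxA between 3.53% and 19.5% in the same lists. HoxB ran between 0.384% and 7.23%, and HoxC between 1.07% and 9.0%. HoxD in BAT H3K9me2 had 9.10% on HFD against 16.4% on SCD, with 8 peaks on HFD against 13 on SCD. HoxC was covered more on HFD than on SCD for H3K9me3 in BAT, with 9.0% against 7.23%, while HoxA had 13.4% on HFD against 19.5% on SCD in those lists.

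Peak by peak, a smaller share of cluster peaks than of all peaks lacked the other diet in BAT and in WAT H3K9me2, apart from the SCD peaks of BAT H3K9me2. Of the 84 cluster regions, 70 lay within 3 kb of a start, and the share for all peaks near starts was not computed. These contrasts therefore cannot be read as particular to the clusters. For H3K9me2 in BAT, 9 of 26 HFD cluster peaks overlapped no SCD peak (34.6%), beside 62.2% of all HFD peaks, and 19 of 36 SCD cluster peaks overlapped no HFD peak (52.8%), beside 35.7% of all SCD peaks. For H3K9me3 in BAT, 15 of 62 HFD peaks stood alone (24.2%), beside 56.9%, and 7 of 53 SCD peaks (13.2%), beside 17.1%. With equal numbers of peaks from both diets the direction turned, to 4 HFD and 14 SCD cluster peaks standing alone. The shares over all peaks were not computed at that setting, so the turn cannot be read as particular to the clusters. The highest-scoring SCD peak without an HFD peak in BAT H3K9me3 was that of Hoxa4. For H3K9me2 in WAT, 8 of 39 HFD peaks stood alone (20.5%), beside 43.9%, and 9 of 39 SCD peaks (23.1%), beside 45.5%. For H3K9me3 in WAT, 39 of 44 HFD peaks stood alone (88.6%), beside 86.4%, and 6 of 10 SCD peaks (60%), beside 49.2%, shares near those of all peaks.

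The members were then compared by their number, as anterior (1 to 3, 7 members), central (4 to 8, 15 members) and posterior (9 to 13, 16 members). For H3K9me2 in BAT, posterior genes were marked most often and central genes varied most with diet. There 12 of 16 posterior members had a peak on HFD (75.0%, interval 47.6 to 92.7%) and 13 on SCD (81.2%, 54.4 to 96.0%). Of the central members, 4 of 15 had one on HFD (26.7%, 7.79 to 55.1%) and 9 on SCD (60%, 32.3 to 83.7%), and of the anterior members 4 of 7 on each diet. For H3K9me3 in BAT, 6 anterior, 13 central and 15 posterior members were marked on HFD, and 5, 14 and 13 on SCD in the same order, from 71.4% of anterior to 93.3% of central members on SCD. For H3K9me2 in WAT, 5 anterior, 12 central and 12 posterior members were marked on HFD, and 7, 11 and 13 on SCD. For H3K9me3 in WAT, 4 anterior, 10 central and 13 posterior members were marked on HFD, and 3, 4 and 4 on SCD. All intervals of the classes within a list overlap each other. Among the members with a peak, the central ones had the lowest median best score of the 3 classes in 7 of the 8 lists. In HFD BAT H3K9me3, for example, it was 137, where anterior members had 343 and posterior ones 294. That anterior median lies between Hoxb3 (331, 4 starts) and Hoxa3 (356, 6 starts), and more starts give more sequence in which a peak is counted. A shared peak enters for each member, and medians with 1 start per gene were not computed. With 1 start per gene, 1 of 7 anterior members was marked in HFD WAT H3K9me3 in place of 4.

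**Figure D5:**
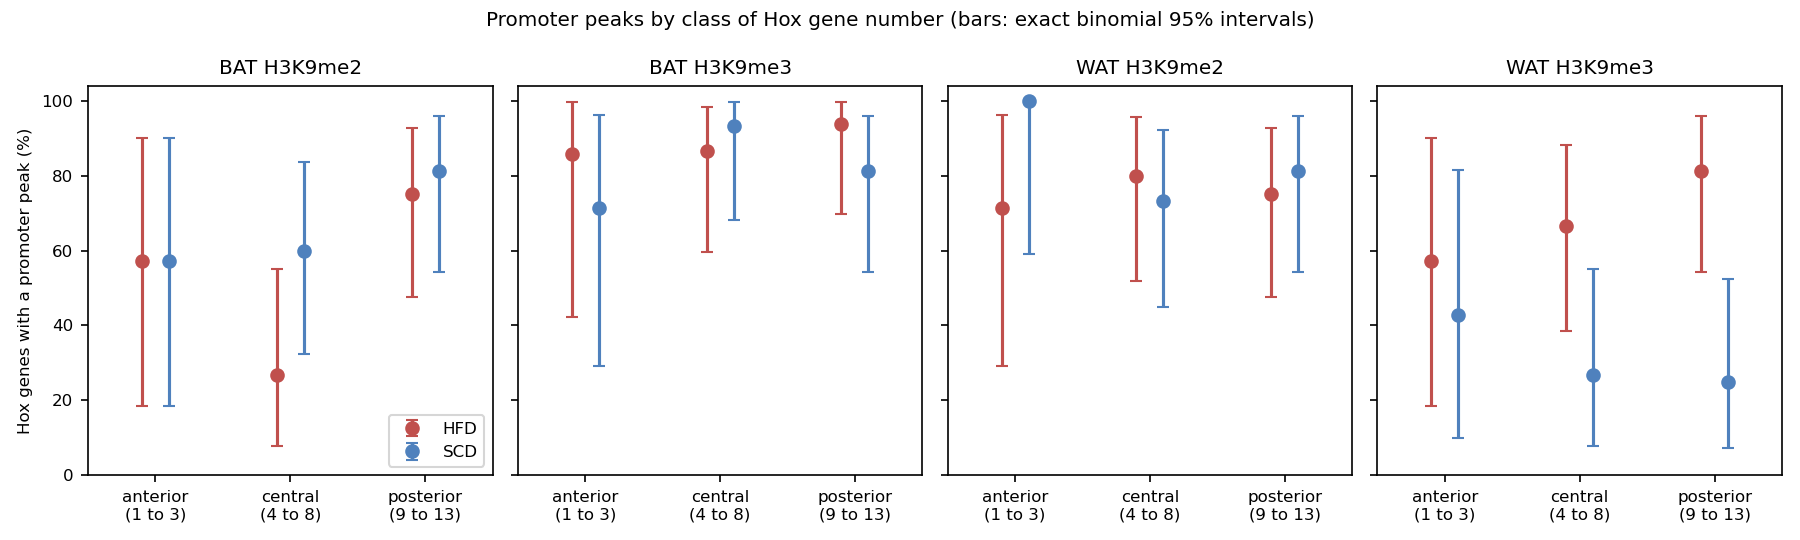
Percent of anterior, central and posterior Hox genes with a promoter peak (points, red HFD left of blue SCD; bars are exact binomial 95% intervals) by tissue and mark. Central genes in BAT H3K9me2 sit at 26.7% on HFD and 60% on SCD, and the intervals of all classes are wide.

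By paralogue group, counted as pairs of a member and a list, group 12 was marked in 14 of 16 pairs and group 11 in 20 of 24, both also with 1 start per gene, beside 40.7% of such pairs over all genes. Group 3 was marked in 23 of 24 pairs, but its 3 members have 4 to 6 starts each, and with 1 start per gene it was marked in 9. Group 2 was marked in 5 of 16 with either count of starts. The groups hold between 2 and 4 members, some with several starts or shared peaks, so these shares are not independent.

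Of the 6 miRNA genes in the clusters, 2 lay under peaks. The share over all miRNA genes was not computed. The merged regions of the 8 lists held between 12.4% (HoxB) and 26.4% (HoxA) of the bases of a cluster. Mir196b, at chr6:52180080-52180164 inside the annotated Hoxa9 gene, was covered for H3K9me3 by a peak of 65.0 on HFD in WAT and of 125 on SCD in BAT. Mir615, at chr15:102845341-102845432 inside the Hoxc5 gene, was covered for H3K9me3 in BAT by a peak of 133 on HFD and 156 on SCD. Mir10a, Mir10b, Mir196a-1 and Mir196a-2 lay under no peak in any list. The mature sequences from RefSeq (table of GRCm38.p6) are given for the covered genes and for miR-196a-5p, the product of 2 genes under no peak, with the seed, bases 2 to 8, in capitals. The seed of miR-196b-5p is that of miR-196a-5p, a family that pairs with Hox transcripts.
mmu-miR-196b-5p: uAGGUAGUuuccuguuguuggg
mmu-miR-196a-5p: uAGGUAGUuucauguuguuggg
mmu-miR-615-3p: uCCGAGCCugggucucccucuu

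Genes that work with the Hox proteins were counted from fixed lists. Of 9 cofactor genes, whose proteins bind DNA together with Hox proteins, 5 had a promoter peak on HFD and 4 on SCD for H3K9me2 in BAT, and 8 on HFD and 6 on SCD for H3K9me3 in BAT. In WAT, 4 had one on HFD and 6 on SCD for H3K9me2, and 4 on HFD and 1 on SCD for H3K9me3. Of 20 regulators of Hox genes (Cdx factors, retinoic acid receptors, Polycomb and Trithorax proteins and Ctcf), 13 had one on HFD and 17 on SCD for H3K9me2 in BAT, and 18 on each diet for H3K9me3. In WAT, 9 had one on HFD and 14 on SCD for H3K9me2, and 9 on HFD and 1 on SCD for H3K9me3. Cdx1 had one in all 8 lists, with scores between 69.4 and 584, and Cdx4 had none.

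The 8 other regional identity genes, homeobox and T-box factors that also give cells their position, were marked more often than either list. All 8 had a promoter peak in 6 lists, 6 had one in SCD WAT H3K9me2 and 3 in SCD WAT H3K9me3. Evx2, the neighbour of Hoxd13, had one in all 8 lists, with scores between 56.0 and 477, as did Gsx1, between 50.5 and 666, and Gsx2, between 54.8 and 579. The background shares for these counts are those of all genes given above for the same lists.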

How the data were processed

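H3K9me2 and H3K9me3 were measured by ChIP-seq in BAT and WAT of mice on HFD or SCD, with 1 library for each of the 8 combinations, and samples were grouped by their titles. Per the labels and the study's methods, the authors used FastQC and Trim Galore before alignment by Bowtie2 2.4.2 (mm9), dropped multi-mapping reads, and obtained the peaks from MACS2. Whether the inputs entered the calling, and the threshold used, are not given in the sources used here. The deposited value is a peak score with no header, read as 10 × -log10 p because it stops at 50 in 6 lists and at 30 in both SCD WAT lists. The lists hold neither depth nor fold enrichment, and reads were not analysed here, so depth is unknown.

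Peaks of score 50 or more were kept, 228915 in all. Promoters were 3 kb on either side of each of the 70008 starts of 22225 protein-coding genes (GENCODE vM1, NCBIM37). The 38 members have 82 starts. An overlap of 1 bp was enough. Shares have exact (Clopper-Pearson) 95% intervals. Overlaps were tested on simulated data, where 200 of 200 planted peaks were found and 0 calls differed from bedtools 2.31.1. Python 3.11.15, NumPy 2.4.6, SciPy 1.17.1, pysam 0.24.0 and matplotlib 3.10.9 were used. Sequences were read from NCBIM37.

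Alternatives were a score of at least 80, the lists as deposited, equal numbers of peaks, a 1 kb promoter, 1 start per gene, widened clusters, a larger overlap and another class border. Values in every list were given for members with a promoter peak in all 8 lists, for the 4 highest of those on 1 diet only in each tissue and mark, and for the highest in each list and cluster. Further members were given by range or chosen after their values were seen. The members and lists were chosen with earlier results of these data known. All 20 regulators were found, Kmt2a through its RefSeq synonym.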

Additional observations from a re-analysis of the deposited data

Results flagged for a closer look

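Both tissues had H3K9me3 peaks at the promoter of Hoxa4 on 1 diet only, and the diet differed. In BAT the peak was on SCD only, with a score of 409.76, and in WAT on HFD only, with a score of 55.15. Hoxb1 had the opposite arrangement for H3K9me3: a peak on HFD only in BAT, of 100.88, and on SCD only in WAT, of 77.67. Neither difference between the tissues was tested, because there is 1 library for each combination. Such reversals were looked for among the members alone and not counted over all genes. Whether they are more frequent at Hox genes is therefore unknown. The WAT peak of Hoxa4 was not among the peaks of score 80 or more or among equal numbers of peaks. For Hoxb1 the WAT peak was below a score of 80, and the BAT peak was missing with equal numbers. Both pairs were present with the lists as deposited, a 1 kb promoter and 1 start per gene.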

How the results depend on the processing

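Summary values within 1.5 times their main value or inside its interval numbered 35 of 56 at a score of at least 80, 46 of 56 with the lists as deposited, 45 of 56 with equal numbers of peaks from both diets, 36 of 40 with a 1 kb promoter and 33 of 40 with 1 start per gene. With equal numbers of peaks from all 8 lists, 7 moved and 1 of 8 did so, that of SCD WAT H3K9me3, the shortest list, which could not move. With number 4 counted as anterior, 22 of 24 did so, as did all 8 with clusters widened by 10 kb and all 8 with an overlap of 50% of the narrower peak. Some of these values could not move. Only the SCD WAT lists hold peaks below 50, so values that rest on the other lists alone were fixed with the lists as deposited. Equal numbers from both diets left the shorter list of each pair unchanged. These tallies are therefore no measure of stability. The causes of the moves below were not tested beyond what each setting removes. Shares over all genes were computed only for some of the equal-number settings, and those are given above. The other counts below stand without a share over all genes or all peaks. Whether these moves are particular to the Hox genes was therefore not tested. No paired analysis was possible because there is 1 library per group.

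At a score of at least 80, members with a promoter peak numbered 18 in HFD WAT H3K9me2, 16 in HFD WAT H3K9me3 and 1 in SCD WAT H3K9me3. Members on HFD only were 6 for BAT H3K9me3 and 4 for WAT H3K9me2, and on SCD only 2 for BAT H3K9me3, 7 for WAT H3K9me2 and 0 for WAT H3K9me3. Central members were 33.3% in HFD and 33.3% in SCD WAT H3K9me2, and 13.3% in HFD and 6.67% in SCD WAT H3K9me3, where anterior and posterior members on SCD were both 0%. Cluster peaks numbered 12 in HFD BAT H3K9me2, 23 in HFD WAT H3K9me2, and 21 in HFD and 1 in SCD WAT H3K9me3. Without a peak on the other diet were 3 HFD peaks in BAT H3K9me2, and 20 HFD and 0 SCD peaks in WAT H3K9me3.

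With the lists as deposited, SCD WAT H3K9me3 marked 20 members, 66.7% of central ones and 26 cluster peaks, 13 of them without an HFD peak, and members on HFD only were 11. For WAT H3K9me2, 0 members were on HFD only, SCD marked 100% of central members with 65 cluster peaks, and 2 HFD and 28 SCD cluster peaks lacked the other diet.

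With equal numbers from both diets, HFD WAT H3K9me3 marked 11 members, 0% of central and 50% of posterior ones, and had 13 cluster peaks, 11 without an SCD peak, while 7 members were on HFD only and 7 on SCD only. HFD BAT H3K9me2 had 17 cluster peaks. In BAT H3K9me3, 2 members were on SCD only, and 4 HFD and 14 SCD cluster peaks lacked the other diet. With equal numbers from all 8 lists, chosen after seeing the data, BAT had 7 members on HFD and 9 on SCD for H3K9me2 and 11 on HFD and 16 on SCD for H3K9me3, and WAT had 15 on HFD and 14 on SCD for H3K9me2 and 11 on HFD for H3K9me3.

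With a 1 kb promoter, SCD WAT H3K9me3 marked 7 members, 7 were on HFD only in BAT H3K9me2, 2 on SCD only in BAT H3K9me3 and 7 on SCD only in WAT H3K9me2. With 1 start per gene, SCD WAT H3K9me3 also marked 7 members, BAT H3K9me3 had 6 on HFD only and 3 on SCD only, and WAT H3K9me2 had 1 on HFD only. Then 14.3% of anterior members were marked in HFD WAT H3K9me3, 66.7% of central ones in SCD BAT H3K9me3 and 46.7% of central ones in HFD WAT H3K9me2. With number 4 counted as anterior, central members in BAT H3K9me3 were 100% on HFD and 100% on SCD. Depth is unknown, so a missing peak means that none was listed at this score, not that the mark was absent.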
